A study of Homo sapiens with 6 samples.

Results

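Globin transcripts were followed in Jurkat, an established human line grown from a T-cell leukemia. The data are 6 bulk RNA-seq libraries. The 8 genes were chosen by symbol, with their values in these libraries known: HBA1, HBA2, HBZ, HBM and HBQ1 of the alpha-globin cluster and HBB, HBG1 and HBG2 of the beta-globin cluster, out of 59248 symbols in the deposited table. All 8 were found there, and 3 of them (HBA1, HBA2 and HBQ1) passed the expression filter, as did 21055 genes in all. Because the contrast between the groups chose the members, their values are given as a description and no test is given for them.

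The groups were 3 libraries of cells overexpressing a splicing isoform of PDCD1 that retains the start of intron 2 (genotype label PDCD1 28 OE) and 3 libraries of cells with the vector. The growth protocol names all cells Jurkat KO-1, without saying what KO-1 stands for, and gives the same serum-containing RPMI1640 medium for all. Whether the numbered libraries are separate cultures or clones is not stated in the labels, so the spread behind each p-value may be technical. The study used the comparison to look for transcripts that change with the isoform.

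Hemoglobin carries oxygen in red cells and is built from alpha-like and beta-like globin chains around heme. The alpha-like genes lie together near the tip of the short arm of chromosome 16 and the beta-like genes on chromosome 11, and each cluster is switched on in erythroid cells by a distant enhancer, with embryonic, fetal and adult genes used in turn. In T cells both clusters are normally silent or nearly so, although Jurkat cells express TAL1, a transcription factor that also drives globin genes in erythroid precursors.

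The libraries held between 59911578 and 84220970 estimated counts in all. A read pair may have added about 4 estimated counts in this table, so the floor was set at 12 estimated counts per library, that is 3 read pairs, which covers counting error only. PDCD1 itself had 945, 1059 and 807 estimated counts in overexpression and 14, 18 and 15 in vector, so the target gene followed the labels. All 16 T cell markers examined passed the expression filter, and CD3E, a chain of the T cell receptor complex, lay at 396 CPM in overexpression and 415 CPM in vector. CD28, the costimulatory receptor gene, went from 218 ± 47.9 CPM in vector to 1.90 ± 0.381 CPM in overexpression (SD, n = 3). CPM is the usual library-scaled count, here from estimated counts and TMM-adjusted library sizes.

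HBA1 and HBA2, which encode the same alpha-globin protein, were the globin genes that set the libraries apart. HBA1 (chromosome 16, 176680 to 177522, plus strand, hg38, 2 exons) had 13, 9 and 16 estimated counts in overexpression replicates 1, 2 and 3 and 1178, 74 and 1164 in vector replicates 1, 2 and 3. Vector replicates 1 and 3 were high, vector replicate 2 lay far below them, and the overexpression libraries lay near the floor. HBA2 (172876 to 173710, plus strand, 2 exons) had 9, 10 and 12 estimated counts in overexpression and 891, 51 and 908 in vector. The order of the libraries was thus alike for both genes, and in both the groups did not overlap. The transcripts of HBA1 and HBA2 share most of their sequence, so their estimates are not independent of each other. In bulk libraries, fewer cells that express a gene and less RNA per cell cannot be told apart.

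In CPM, HBA1 lay at 0.200, 0.121 and 0.250 in overexpression and at 20.3, 0.917 and 17.2 in vector. For HBA2 the values were 0.139, 0.134 and 0.188 CPM in overexpression and 15.4, 0.632 and 13.4 CPM in vector. Vector replicate 1 held 22.2 times the HBA1 level of vector replicate 2, and vector replicate 3 held 18.8 times that level. For HBA2 these ratios were 24.3 and 21.2. Vector replicates 1 and 3 differed from each other by 1.18-fold in HBA1 and 1.14-fold in HBA2. The lowest vector library was still 3.66 times the highest overexpression library in HBA1 and 3.37 times in HBA2.

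**Figure D1:**
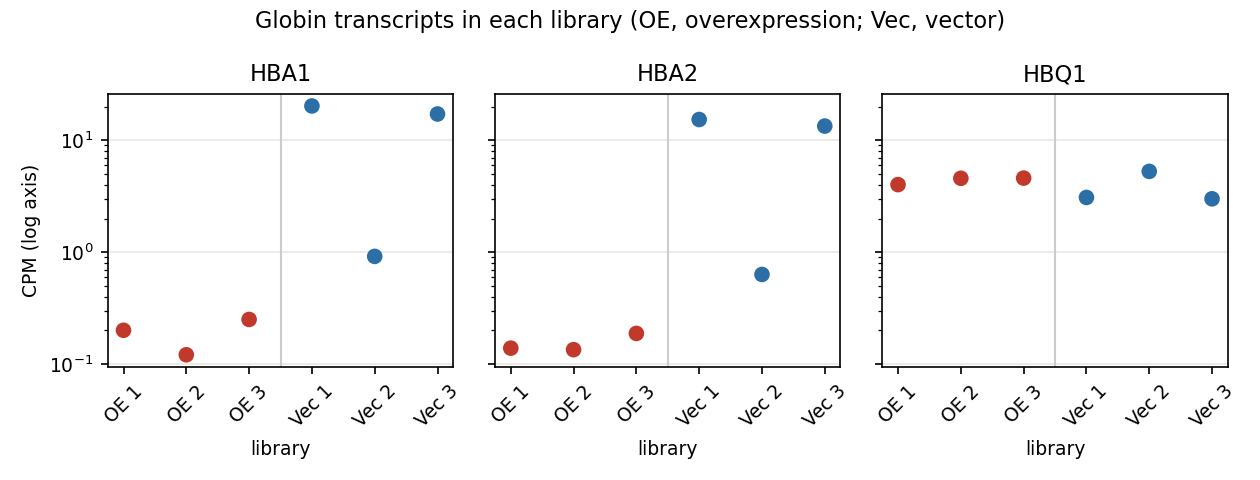
CPM of HBA1, HBA2 and HBQ1 (y axis, log scale) in each library (x axis), with overexpression in red and vector in blue and 1 point per library. HBA1 and HBA2 are high in vector replicates 1 and 3 (13.4 to 20.3 CPM), under 1 CPM in vector replicate 2 and at most 0.250 CPM in overexpression, whereas HBQ1 stays between 3.002 and 5.28 CPM in all 6.

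The group means hide this spread. HBA1 averaged 0.190 ± 0.0652 CPM in overexpression and 12.8 ± 10.4 CPM in vector (SD, n = 3 each), and the fitted log2 fold change was -6.07 ± 1.10 (SE). HBA2 averaged 0.154 ± 0.0297 and 9.81 ± 8.01 CPM, with a log2 fold change of -5.98 ± 1.12. Without vector replicate 2 the changes were -6.64 ± 0.24 and -6.55 ± 0.21, with SEs several-fold smaller. With limma-voom, which averages on the log scale, they were -4.99 ± 3.13 and -4.80 ± 3.07, under 2 SE from 0. In overexpression 3 of the 6 values of this pair lay under the floor of 12 and the highest was 16, so the size of either fold is uncertain. Relative to 12 estimated counts in the smallest overexpression library, HBA1 was 108-fold higher in vector replicate 1, 91.7-fold higher in vector replicate 3 and 4.89-fold higher in vector replicate 2.

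Over all 21055 genes tested, 46.1% were called between the groups by edgeR (adjusted p under 0.05), 22.6% higher and 23.4% lower in overexpression, 58.7% had groups that did not overlap, and in 28.6% all 3 vector libraries lay above all 3 overexpression libraries. Since values of this contrast chose the members, nothing is read from how many of them are among these genes.

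HBA1 and HBA2 could not be told apart fully in short reads. Of the 591 windows of 50 bases in the annotated HBA2 transcript, 530 (89.7%) also occur in that of HBA1, and no window is shared with HBQ1, HBZ, HBM or HBB. How the deposited estimates divide reads between the copies is not given in the sources used here, so the sum of the pair is more certain than its split. The sum was 22, 19 and 28 estimated counts in overexpression and 2069, 125 and 2072 in vector. HBA1 took 56.9%, 59.2% and 56.2% of the pair in the vector libraries and 59.1%, 47.4% and 57.1% in overexpression. The estimated division was similar in vector libraries whose totals differed strongly. Since the handling of shared reads is not given, it cannot be read as the use of each copy. In overexpression it also rests on too few counts to be read.

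HBQ1, which encodes theta-globin, an alpha-like chain of unknown role, was the only member above the floor in all 6 libraries. It lies at 180453 to 181181 on chromosome 16 (plus strand, 3 exons), next to HBA1. Overexpression replicates 1 to 3 held 261, 341 and 294 estimated counts and vector replicates 1 to 3 held 179, 426 and 203. In CPM it lay at 4.02, 4.58 and 4.60 in overexpression and at 3.09, 5.28 and 3.002 in vector. Vector replicate 2, the lowest vector library for the alpha pair, was the highest of all 6 for HBQ1, and the groups overlapped. The group means were 4.40 ± 0.329 and 3.79 ± 1.29 CPM (SD, n = 3 each), and the log2 fold change was 0.21 ± 0.24 (SE), or 0.52 without vector replicate 2, 0.08 without vector replicate 1 and 0.06 without vector replicate 3.

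The ratio of the alpha pair to HBQ1 changed accordingly. In vector replicates 1 and 3 the pair held 11.6 and 10.2 times the estimated counts of HBQ1, in vector replicate 2 it held 0.293 times, and in overexpression 0.0557 to 0.0952 times. The pair made up 90.9% and 91.1% of all counts of the 8 members in vector replicates 1 and 3, 22.4% in vector replicate 2 and 5.28% to 8.70% in overexpression. Even in vector replicate 1 the 8 genes together held 0.00380% of all estimated counts, so globin RNA was a trace part of each library.

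The remaining members were at or near 0. HBZ, the embryonic alpha-like globin gene (152687 to 154503), had 4 and 7 estimated counts in vector replicates 1 and 2 and 0 elsewhere, under the floor of 12. HBB, the adult beta-globin gene, had 24 estimated counts in vector replicate 1 and 0 in the other 5 libraries. HBM, an alpha-like gene annotated at 153892 to 166768, and HBG1 and HBG2, the fetal gamma-globin genes, had 0 in all 6. Of the alpha-like genes, then, the adult pair and HBQ1 were detected above the floor, and of the beta-like genes HBB in 1 library. At this depth a level up to the floor, 0.188 CPM in the smallest overexpression library, cannot be told from 0.

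Levels of different genes were compared per kilobase of the longest annotated transcript. In vector replicate 1, HBA1 stood at 30.1 CPM per kilobase, HBA2 at 24.0, HBQ1 at 5.76 and HBB at 0.549. Vector replicate 3 had the same order, with 25.5 for HBA1, 21.0 for HBA2 and 5.60 for HBQ1. In vector replicate 2, HBQ1 came first with 9.85, ahead of HBA1 with 1.36 and HBA2 with 0.988. HBQ1 was also first in overexpression, at 7.50 to 8.58 CPM per kilobase, where HBA1 (0.179 to 0.371) and HBA2 (0.210 to 0.293) overlapped.

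**Figure D2:**
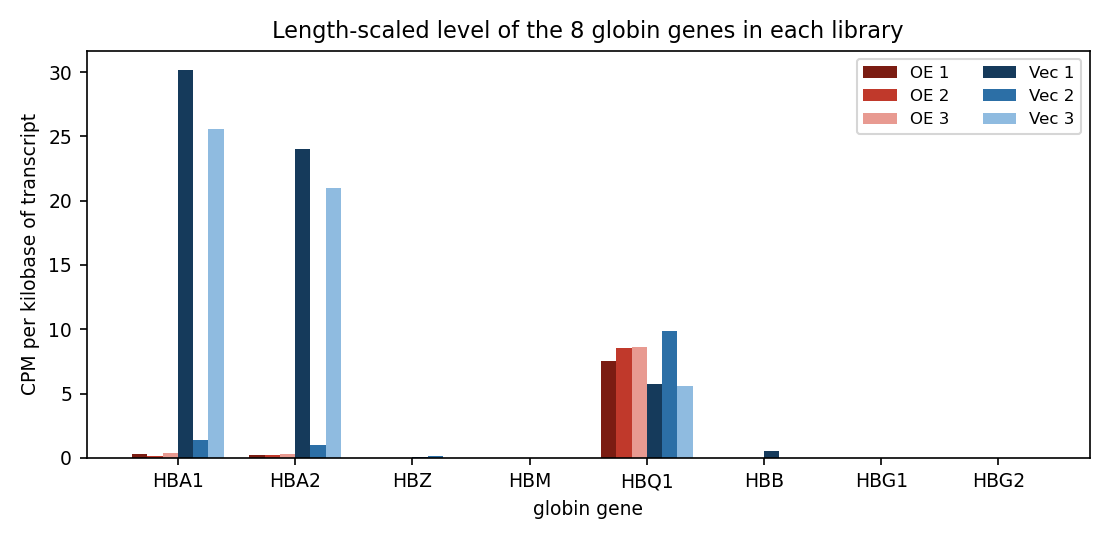
Level of each of the 8 globin genes (x axis) as CPM per kilobase of the longest annotated transcript (y axis, from 0), with 1 bar per library. HBA1 reaches 30.1 and 25.5 in vector replicates 1 and 3, HBQ1 lies between 5.60 and 9.85 in all 6 libraries, and HBM, HBG1 and HBG2 have no counts.

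The spread of the alpha pair among the vector libraries was among the widest in the data. Of 13973 tested genes whose mean was 100 estimated counts or more, HBA1 ranked 9 and HBA2 10 by the range of log2(CPM + 0.5) over the 3 vector libraries, with ranges of 3.88 and 3.81 against a median of 0.22. HBQ1 ranked 1074, with a range of 0.72. Both genes reached the mean of 100 through the vector libraries. In overexpression, near the floor, the highest library held 2.07 times the CPM of the lowest for HBA1 and 1.40 times for HBA2. A range of at least 2, that is 4-fold, was held by 72 genes (0.515%) in vector and by 52 in overexpression. Among the 72, vector replicate 2 was the lowest vector library in 31 and the highest in 31, vector replicate 1 in 21 and 22, and vector replicate 3 in 20 and 19.

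Few genes shared the order and the width of the alpha pair. Among the 72, the libraries of 5 genes fell as those of HBA1 did, with vector replicates 1 and 3 on top, vector replicate 2 below them and every overexpression library lowest: HBA1, HBA2, GZMK, EOMES and GZMM. This filter was set after the values had been seen, so the 3 other genes are described and not tested. GZMK encodes granzyme K, a serine protease of cytotoxic lymphocytes, and GZMM granzyme M. EOMES encodes eomesodermin, a T-box transcription factor of memory and cytotoxic lymphocytes. EOMES lay at 8.27, 7.64 and 7.46 CPM in overexpression and at 145.8, 22.9 and 143 CPM in vector. GZMK lay at 0.339, 0.537 and 0.313 CPM in overexpression and at 13.2, 1.39 and 16.03 CPM in vector. For GZMM the values were 1.34, 1.40 and 1.28 CPM in overexpression and 17.4, 3.16 and 16.1 CPM in vector. In all 3 genes vector replicate 2 lay several-fold under the other vector libraries, by less than in the alpha pair.

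**Figure D3:**
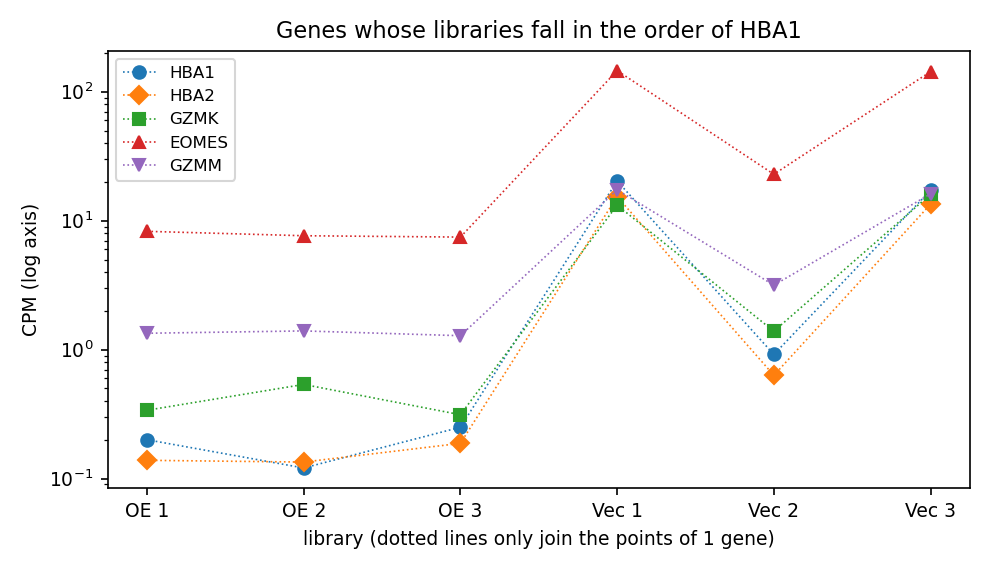
CPM (y axis, log scale) of the 5 genes whose vector libraries span at least 4-fold and whose libraries fall in the order of HBA1, by library (x axis). All 5 are high in vector replicates 1 and 3, lower in vector replicate 2 and lowest in the 3 overexpression libraries, with EOMES at 7.46 to 145.8 CPM.

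By Pearson correlation of log2(CPM + 0.5) with HBA1 over the 6 libraries, HBA2 was nearest (r = 0.999), and the 8 genes outside the members most like it were ABCG1, HDAC7, B2M, MARCHF5, NBEAL2, LCP2, GZMM and TRAF3IP3, with r from 0.996 to 0.998. HBA2 shares 89.7% of its 50-base windows with HBA1, so its estimate is not independent of that of HBA1 and its r cannot show separate co-expression. The 6 points share libraries, depth and the contrast of the groups. Of 13973 genes, 1070 had r above 0.9, 411 above 0.95 and 33 above 0.99. An r above 0.9 was thus held by many genes and one above 0.99 by few. The 8 genes were picked for their high r, so it is described and not tested. Apart from GZMM these genes moved far less than HBA1, with log2 fold changes from -0.72 (LCP2) to -0.36 (MARCHF5). B2M, which encodes the beta-2 microglobulin chain of MHC class I, lay at 257, 262 and 259 CPM in overexpression and at 367, 280 and 367 CPM in vector, and ABCG1, a cholesterol exporter gene, had a log2 fold change of -0.45 ± 0.11 (SE).

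Genes around the alpha-globin cluster moved both ways and by much less than HBA1 and HBA2. Within 250 kb of the cluster (chromosome 16, up to position 431181), 25 other genes were annotated and 18 tested. Of these, 2 rose and 8 fell by edgeR (11.1% and 44.4%, beside 22.6% and 23.4% over all genes), with a median log2 fold change of -0.22 against 0.02 over all genes. Without overexpression replicate 3, 6 were called in place of 10. NPRL3, a GATOR1 subunit gene whose introns hold the erythroid enhancers of the cluster, lay at 61.7 ± 3.72 CPM in overexpression and 65.5 ± 0.9903 CPM in vector, and was not called (log2 fold change -0.09 ± 0.06, adjusted p = 0.25). LUC7L, a splicing factor gene and the nearest gene tested on the other side, fell from 100.1 ± 8.46 to 79.1 ± 1.39 CPM (edgeR adjusted p = 0.00348).

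Farther out, NME4, a mitochondrial nucleoside diphosphate kinase gene, fell from 94.5 ± 14.7 to 49.4 ± 0.765 CPM (log2 fold change -0.94 ± 0.10, edgeR adjusted p = 0.000175). PGAP6, AXIN1 and DECR2 fell by 0.60, 0.43 and 0.31 on the log2 scale, and MRPL28, a mitochondrial ribosomal protein gene, rose by 0.24. SNRNP25, FAM234A and IL9RP3 fell by 0.20, 0.21 and 0.60 and WASH4P rose by 0.50, calls that each were lost under 3 to 9 of 14 alternatives. IL9RP3 and WASH4P have near-identical copies elsewhere, which makes their levels uncertain. POLR3K, MPG and RAB11FIP3 had log2 fold changes of 0.09, 0.14 and -0.14 and were not called (edgeR adjusted p = 0.356, 0.145 and 0.0884). None of the tested neighbours had a fitted change beyond 1 on the log2 scale, while HBA1 and HBA2 lay near -6.

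**Figure D4:**
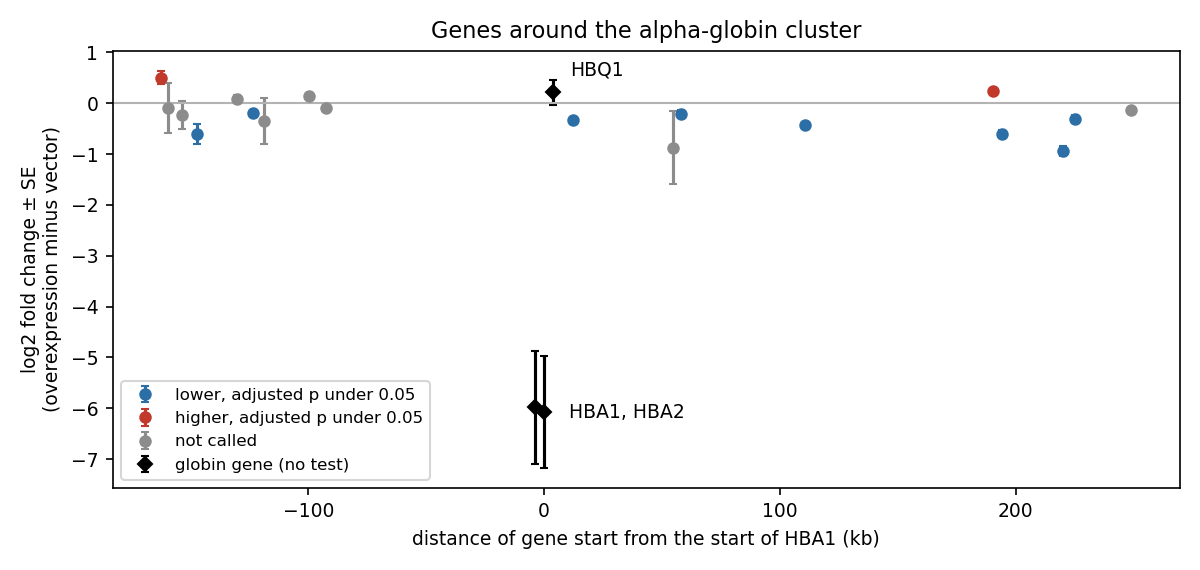
Log2 fold change with its SE (y axis, overexpression minus vector) of the tested genes within 250 kb of the alpha-globin cluster, by distance of each gene's start from that of HBA1 in kb (x axis). HBA1 and HBA2 lie at -6.07 and -5.98, HBQ1 at 0.21, and the tested neighbours between -0.94 (NME4) and 0.50 (WASH4P).

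Around the beta-globin cluster (chromosome 11, 4975464 to 5755605, a window made wide by the long annotated span of HBG2) 54 other genes were annotated, mostly olfactory receptor genes and pseudogenes, and 30 of them had 0 in all 6 libraries. Of 3 tested, TRIM34 rose from 4.90 ± 0.2298 to 10.3 ± 1.06 CPM (edgeR adjusted p = 0.00039) and TRIM5, a retroviral restriction factor gene, fell from 12.5 ± 2.63 to 8.10 ± 0.817 CPM (adjusted p = 0.0164). Without overexpression replicate 1 or without overexpression replicate 3, 1 of them was called. None of the 10 other globin genes examined, from the beta-like genes HBD and HBE1 to myoglobin, neuroglobin and cytoglobin, passed the expression filter. HBE1, the embryonic beta-like gene, had 12 estimated counts in vector replicate 2 and 0 elsewhere, and CYGB, which encodes cytoglobin, had 15, 9 and 13 in overexpression and 0, 0 and 6 in vector.

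Defining genes of red cell precursors were at or near 0 in all libraries. GYPB, GYPE, SLC4A1, RHAG, CA1, XK and CD36 had 0 in all 6. AHSP, which encodes the chaperone of free alpha-globin, had 0 in each overexpression library and 4, 6 and 19 in vector, and ALAS2, the erythroid enzyme of heme synthesis, had 7, 0 and 2 in overexpression and 9, 9 and 23 in vector. AHSP and ALAS2 passed the floor in vector replicate 3 alone, and vector replicate 1, with as much HBA1 as vector replicate 3, stayed under it for both.

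Of 30 erythroid markers, 16 were tested, of which 4 rose and 3 fell (25% and 18.8%, beside 22.6% and 23.4% over all genes; median log2 fold change 0.27). Several of these are also expressed in T cells, and their summed level, 305 to 339 CPM in vector and 409 to 419 CPM in overexpression, came mostly from GYPC and SLC25A37. Vector replicates 1, 2 and 3 had sums of 308, 339 and 305 CPM, against which a small erythroid share would not be seen. Among the risen genes, NFE2, a subunit of an erythroid transcription factor that binds globin enhancers, went from 1.13 ± 0.178 to 5.65 ± 0.278 CPM, SPTB, the erythroid beta-spectrin gene, from 6.29 ± 0.463 to 25.05 ± 1.04 CPM, and GYPC, the glycophorin C gene, from 93.6 ± 14.0 to 198 ± 3.53 CPM. HEMGN and DMTN, which encode hemogen and the actin-binding protein dematin, fell by 1.83 and 2.08 on the log2 scale, and the mitochondrial iron importer gene SLC25A37 by 0.28. The part that cells of another type may have in the alpha-globin counts was not tested beyond these levels.

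Known regulators of the globin clusters moved in both directions. Of 51 examined, 50 were tested, of which 9 rose and 20 fell (18% and 40%, beside 22.6% and 23.4% over all genes), with a median log2 fold change of -0.13. BCL11A, the repressor of fetal globin genes, rose from 39.4 ± 2.35 to 84.1 ± 1.68 CPM (log2 fold change 1.09 ± 0.06, edgeR adjusted p = 6.27e-06). IKZF1, which encodes Ikaros, rose by 0.39 ± 0.05. HDAC2, a histone deacetylase gene, fell from 310 ± 16.3 to 139 ± 6.45 CPM (log2 fold change -1.15 ± 0.06). YY1 and MAFG, genes of a zinc finger factor and of a small partner protein of the NFE2 product, fell by 0.73 and 0.71 on the log2 scale.

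Other regulators are given for their role, after their values had been seen. TAL1 had 394 ± 6.604 CPM in overexpression and 323 ± 30.8 CPM in vector (SD, n = 3) and was called higher (edgeR adjusted p = 0.00935). LMO2, its bridging partner in erythroid cells, had 0 estimated counts in 5 libraries and 4 in overexpression replicate 3. GATA1, the master regulator of red cell genes, had 18, 22 and 27 estimated counts in overexpression and 6, 14 and 11 in vector and was not called (edgeR adjusted p = 0.0824). KLF1, an erythroid activator, had 40, 116 and 73 in overexpression and 35, 51 and 39 in vector and was not called either (edgeR adjusted p = 0.0839). ATRX, a chromatin remodeler whose loss lowers alpha-globin expression in red cells, fell from 165 ± 18.9 to 110 ± 6.16 CPM (edgeR adjusted p = 0.000834). KLF2, a gene of the same factor family as KLF1, was among the regulators lowest in vector replicate 2, with 36.8, 17.0 and 35.5 CPM in vector and 5.50, 7.07 and 7.73 CPM in overexpression, the same order as in HBA1 over a narrower range. NR2C2, which encodes a nuclear receptor that binds globin promoters, lay at 99.4, 53.9 and 91.6 CPM in vector and at 57.9, 61.6 and 57.1 CPM in overexpression. GATA2, a factor of blood progenitors, had 34, 54 and 5 estimated counts in vector and 93, 157 and 97 in overexpression, with vector replicate 3 lowest. It was called higher in overexpression (edgeR adjusted p = 0.0324). KLF4 had 39, 0 and 13 in vector and 11, 9 and 17 in overexpression.

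Genes of heme synthesis and iron handling moved in both directions. Of 24 genes, 22 were tested, of which 6 rose and 10 fell (27.3% and 45.5%, beside 22.6% and 23.4% over all genes), with a median log2 fold change of -0.18. TFRC, the transferrin receptor gene, fell from 589 ± 104 to 186 ± 3.64 CPM (log2 fold change -1.66 ± 0.11, edgeR adjusted p = 1.72e-05). ACO1, an iron regulatory protein gene, and UROS, which encodes uroporphyrinogen III synthase, each fell by 0.54. The heme pathway genes did not move together: besides the fall of UROS, PPOX (protoporphyrinogen oxidase) rose by 0.80 ± 0.13, and FECH, which encodes the enzyme that inserts iron, had a log2 fold change of -0.10 and was not called (edgeR adjusted p = 0.227). BLVRB, a biliverdin reductase gene, and ABCB10, a mitochondrial transporter gene, rose by 0.70 ± 0.11 and 0.34 ± 0.05. Of 6 genes of hemoglobin scavenging and reduction, 4 were tested. Of these, 2 rose and 1 fell (50% and 25%, beside 22.6% and 23.4% over all genes). CYB5A and CYB5R3, which keep hemoglobin iron reduced, rose by 0.35 and 0.16, and the scavenger receptor gene LRP1 fell by 0.25. Over 14 alternatives the CYB5R3 call was lost under 8, the LRP1 call under 3 and the CYB5A call under 1. Without overexpression replicate 2 all these calls were lost (edgeR adjusted p = 0.0515 for CYB5A, 0.0757 for CYB5R3 and 0.0734 for LRP1).

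**Figure D5:**
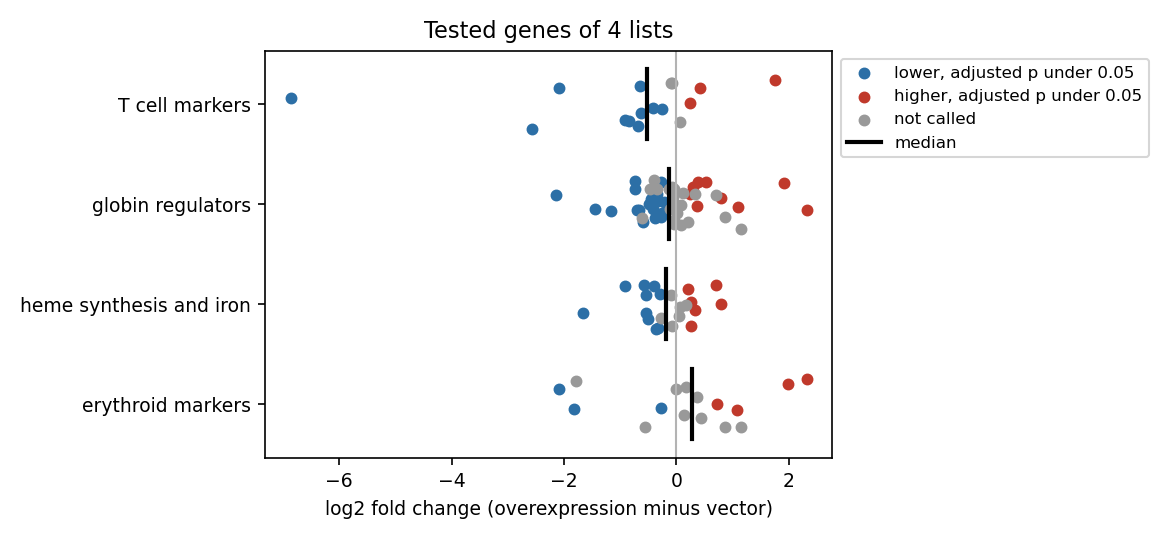
Log2 fold change (x axis, overexpression minus vector) of the tested genes of 4 lists (y axis), 1 point per gene, in blue or red where called by edgeR and in grey where not, with the median as a black bar. The medians lie at 0.27 (erythroid markers), -0.18 (heme synthesis and iron), -0.13 (globin regulators) and -0.52 (T cell markers), and each list has calls in both directions.

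Of the 16 T cell markers, 3 rose and 10 fell (18.8% and 62.5%, beside 22.6% and 23.4% over all genes; median log2 fold change -0.52). Besides CD28, CD2 and CD7, which encode adhesion and costimulatory receptors, had log2 fold changes of -2.57 and -2.09, while ZAP70, a T cell receptor kinase gene, rose by 0.24, TRBC1 by 0.42 and CD4 by 1.75. The CD4 call was lost without overexpression replicate 3 (adjusted p = 0.0619). Of 16 markers of other blood cells, 9 were tested, of which 2 rose and 3 fell (22.2% and 33.3%, beside the same 22.6% and 23.4%). The progenitor marker CD34 fell from 2.94 ± 0.373 to 0.194 ± 0.0508 CPM and the monocyte marker CD14 from 1.16 ± 0.325 to 0.153 ± 0.101 CPM. ITGA2B, a megakaryocyte marker, rose by 1.13, and the B cell marker CD79A fell by 0.62, a call lost without overexpression replicate 1 or 3 (adjusted p = 0.0574 and 0.0568). The neutrophil and platelet genes ELANE and PF4 had 0 in all 6 libraries.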

How the data were processed

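Bulk RNA-seq libraries of Jurkat cells (3 overexpression, 3 vector) were analysed from the authors' deposited table of expected counts, that is estimated counts as whole numbers per gene symbol, with totals that differ between libraries. The tools named in the submitters' processing notes are fastp 0.23.2, STAR 2.7.10a, StringTie and DESeq2, and the build is hg38. The annotation release, the strand setting and the treatment of reads with several positions are not given in the sources used here.

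The groups were compared in edgeR 4.0.16 under R 4.3.3 (filterByExpr, TMM, quasi-likelihood test, no covariate), with Benjamini-Hochberg adjustment over all genes tested and a threshold of 0.05. SEs were derived from the F statistic. On simulated counts for 20393 genes of this comparison the fit recovered 44.8% of genes changed 1.5-fold, 67.2% changed 2-fold and 92.4% changed 4-fold, with 6 false calls among 142. Only 67, 67 and 66 genes were changed at these folds, a far smaller share than was called in the data. These rates therefore need not hold for the data. Positions and transcript lengths were taken from GENCODE 29, which uses the same assembly (GRCh38); 39979 of 59248 symbols matched.

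The members, the 9 gene lists or windows and the naming rule were chosen with earlier results of these data known. The rule named all members, per list at most 3 risen and 3 fallen genes of smallest adjusted p (otherwise at most 2 of highest mean), cluster neighbours averaging 100 or more estimated counts, and the 8 genes most correlated with the member of highest mean; results for a few genes are not reported here. Alternatives were DESeq2 1.42.0, limma-voom (limma 3.58.1), other scalings and filters, counts divided by 4, the replicate number as a block, and each library left out. Figures were drawn with matplotlib 3.10.9.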

Additional observations from a re-analysis of the deposited data

How the results depend on the processing

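Under all 14 alternatives HBA1, HBA2 and HBQ1 kept the sign of their log2 fold changes, which ran from -6.64 to -4.99 for HBA1, from -6.55 to -4.80 for HBA2 and from 0.06 to 0.52 for HBQ1. The number of genes called ran from 7916 to 10868, against 9705. Leaving out 1 library gave 6 to 9 called neighbours of the alpha cluster, 1 to 2 of the beta cluster, 0 to 3 genes of hemoglobin handling and binding, and 0 to 1 other globin genes (CYGB, without vector replicate 3). The stricter filter (1 CPM and 50 estimated counts on average) tested fewer genes and called 3 markers of other blood cells in place of 5. Outside the members, the naming rule gave 55 tested genes, of which 51 were called. Of these 51, 14 lost the call under at least 1 alternative, and none of the 55 reversed. Genes named outside the rule, such as TAL1, ATRX, KLF2, EOMES and GZMK, were not part of this count. Replicate numbers do not pair the samples: deviations of same-numbered libraries correlated at 0.00739, 0.0106 and 0.0125 across genes, although each library correlated best with its own number. With the replicate block 8690 genes were called, and 1 gene of hemoglobin handling and binding in place of 3; the cause was not tested. Depth limits HBA1 and HBA2 in overexpression, HBZ and HBB, all near the floor of 12 estimated counts.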
